A study of Mus musculus with 10 samples.

Results

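Most of the genes described here build the route by which milk proteins enter the endoplasmic reticulum (ER) and travel on to the Golgi. They cover the targeting and translocation machinery at the ER membrane, the COPII and COPI vesicle coats, and the receptors that load cargo. SNAREs and the tether of the early Golgi are included, and with them Vamp8, a SNARE that is not of the early Golgi. The genes were taken as a list of 45 genes, each represented by every probe set whose annotation gave that gene's symbol and no other. Of the 45 genes, 42 had such a probe set, and all 42 had at least 1 probe set bright enough to be tested. Together these held 84 of the 20380 probe sets with a single symbol, and 74 of the 11412 tested probe sets. Sec61g and Tmed2 lay only on probe sets shared with other symbols (1 and 6 probe sets), Srp72 was on none, and these 3 genes have no value here. The 10 member probe sets that were not tested had mean levels of 2.13 to 4.13 on the log2 scale.

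The samples were mammary glands of 5 QSi5 and 5 CBA mice, 1 gland and 1 array per mouse, taken on day 9 of lactation. QSi5 is an inbred strain derived by selection for large litters with short intervals between them, and CBA is an inbred strain without that selection. No transgene, deletion or drug treatment is given for either strain, and the females were nulliparous at mating, which the methods place at the same age in both strains, while their age at sampling is not given in the sources used here. The dams were in their initial lactation and were weaned by force before the glands were taken, and the number of pups that each dam nursed is not given for the array samples. RNA was extracted from homogenised tissue, so that fewer secretory cells and less RNA per secretory cell cannot be told apart. The milk protein genes that define lactating alveolar cells were among the brightest signals in both strains, with Csn3 (kappa-casein) at 14.05 ± 0.024 in QSi5 and 14.02 ± 0.068 in CBA glands (log2 intensity, SD, n = 5 mice per strain).

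A lactating alveolar cell synthesises caseins and whey proteins on ribosomes bound to the ER. The signal recognition particle (SRP) meets the signal peptide as it leaves the ribosome and docks on its receptor, the nascent chain is passed through the Sec61 channel with help from the translocon-associated protein (TRAP, Ssr genes) complex, and the signal peptidase complex removes the signal peptide. Folded cargo then leaves in COPII vesicles, for which the GTPase Sar1 recruits the Sec23 and Sec24 inner coat and the Sec13 and Sec31 outer cage. COPI coatomer, recruited by Arf GTPases, returns escaped ER proteins and receptors from the Golgi. Most of these genes are expressed in every cell and are induced together when a cell becomes a professional secretor, in part through the unfolded protein response (UPR) factors XBP1 and ATF6 and their relatives of the CREB3 family.

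Because these factors read short DNA motifs, the members' promoters were searched for 3 of them, in windows that RefSeq (GRCm38.p6) places from 250 bases before to 50 bases after each annotated start. Of the 45 genes, 38 had an entry, with 43 windows. The core of the UPR element, TGACGTGG on either strand, stood in 7 of the 43 windows (16.3%), against 222 of 32851 windows of all genes (0.676%) and 72 of 7710 windows of genes tested on the arrays (0.934%). Those 7 windows belonged to 6 genes, all of them coat or Golgi SNARE genes: Copb1, Copb2 and Arf1 of COPI, Sec23a and Sec24d of COPII, and the syntaxin gene Stx5a. None of the 14 windows of targeting and translocation genes held it, which is also the likely count at the share over all genes. The sites are printed for comparison, in the gene's own 5′ to 3′ direction, with the motif in capitals (TGACGTGG, or CCACGTCA where it runs on the opposite strand) and 11 bases on each side.
Copb1: cccgcccccttCCACGTCAgccaaggactt
Copb2: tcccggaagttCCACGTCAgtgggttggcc
Arf1: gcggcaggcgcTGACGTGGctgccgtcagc
Sec23a: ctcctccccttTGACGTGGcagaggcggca
Sec24d: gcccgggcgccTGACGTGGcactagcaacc
Stx5a: tggcgcagcagCCACGTCAccgagttagga
These stretches lie, on GRCm38.p6, at chr7:114254690-114254719 (minus strand), chr9:98563713-98563742 (plus), chr11:59228228-59228257 (minus), chr12:59011993-59012022 (minus), chr3:123267459-123267488 (plus) and chr19:8741422-8741451 (plus). All 6 are close to an annotated start: the motif spans positions -28 to -21 in Copb1, -7 to 1 in Copb2, -26 to -19 in Sec24d, 7 to 14 in Sec23a and 10 to 17 in Stx5a, counted from the annotated start as position 1 with no position 0. In Arf1 the same site lies at 22 to 29 of one annotated start and at -84 to -77 of another, which makes 2 windows of a single site, and Stx5a held a further copy at 40 to 47. A motif match is a description of the sequence and not evidence that a factor binds there.

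The whole stretch of 250 bases before the Copb1 start is printed because Copb1 was the gene with this motif whose strain difference had an unadjusted p under 0.01. It lies at chr7:114254681-114254930 on the minus strand (GRCm38.p6), with a GC content of 53.6% and the motif in capitals.
Copb1: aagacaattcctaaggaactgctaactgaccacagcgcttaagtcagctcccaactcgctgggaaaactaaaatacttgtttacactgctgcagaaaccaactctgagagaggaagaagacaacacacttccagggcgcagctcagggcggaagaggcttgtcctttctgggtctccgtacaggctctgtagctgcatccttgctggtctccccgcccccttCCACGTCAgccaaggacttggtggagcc

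The other 2 motifs were the ER stress element (CCAAT and CCACG with 9 bases between them) and the ER stress element II (ATTGG and CCACG with 1 base between them), which direct ER chaperone genes. They were found in 0 and 0 of the 43 member windows, against 39 (0.119%) and 12 (0.0365%) of the 32851 windows. Shares this low make 0 the likely count in 43 windows, so that it says little about the members. In a list of ER chaperone and UPR genes, 7 of 17 windows (41.2%) held the ER stress element and 1 (5.88%) the ER stress element II. TGACGTGG stood in 0 of these 17, also the likely count at its share over all genes. The copy in the window of Hspa5 (the BiP chaperone) is printed as the contrast, at chr2:34772020-34772048 on the plus strand (GRCm38.p6), with the whole element in capitals.
Hspa5: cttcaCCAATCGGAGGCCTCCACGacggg
The 6 members with TGACGTGG had strain differences of -0.47 to -0.02 on the log2 scale (median -0.10, QSi5 minus CBA, brightest probe set of each), and the 30 tested members with a window but without it had -0.50 to 0.39 (median -0.17).

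Levels of the 42 genes were then compared between the strains. The deposited values are log2 intensities, differences are QSi5 minus CBA with limma's standard error, and calls were made where the p adjusted by Benjamini and Hochberg (BH) over all 11412 tested probe sets was under 0.05. Of the 74 member probe sets, 2 were called and both were lower in QSi5: 1 of the 2 probe sets of Ssr1, a TRAP subunit, and the probe set of Spcs3, a signal peptidase subunit. This is 2.7% of the members, against 2.94% of all tested probe sets called in either direction and 1.51% called lower in QSi5, so the share of calls was near the background. At an unadjusted p under 0.01, 7 member probe sets (9.46%) were lower in QSi5, against 3.42% of all, and 0 were higher, against 3.08% of all. The values of the 5 QSi5 mice lay wholly below those of the 5 CBA mice for 4 member probe sets (5.41%) and wholly above for 0, where 5.14% of all tested probe sets did not overlap in either direction and 2.63% were wholly lower.

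Taken 1 probe set per gene (the brightest tested one), 34 of the 42 genes (81.0%) had a difference below 0, against 3616 of 7361 genes (49.1%). Their median difference was -0.17 on the log2 scale, against 0.0038 for all 7361 genes, and single genes ran from -0.86 (Spcs3) to 0.39 (Ssr4). Only Spcs3 was called on its brightest probe set, 1 of 42 genes (2.38%), against 2.7% of all genes. The 95% interval of the difference lay below 0 for 13 genes, included 0 for 29 and lay above 0 for 0, and the median distance from the difference to either bound was 0.33. All 42 differences rest on the same 10 glands, in which the genes moved together from mouse to mouse, so that the count below 0 is not 42 separate observations.

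**Figure D1:**
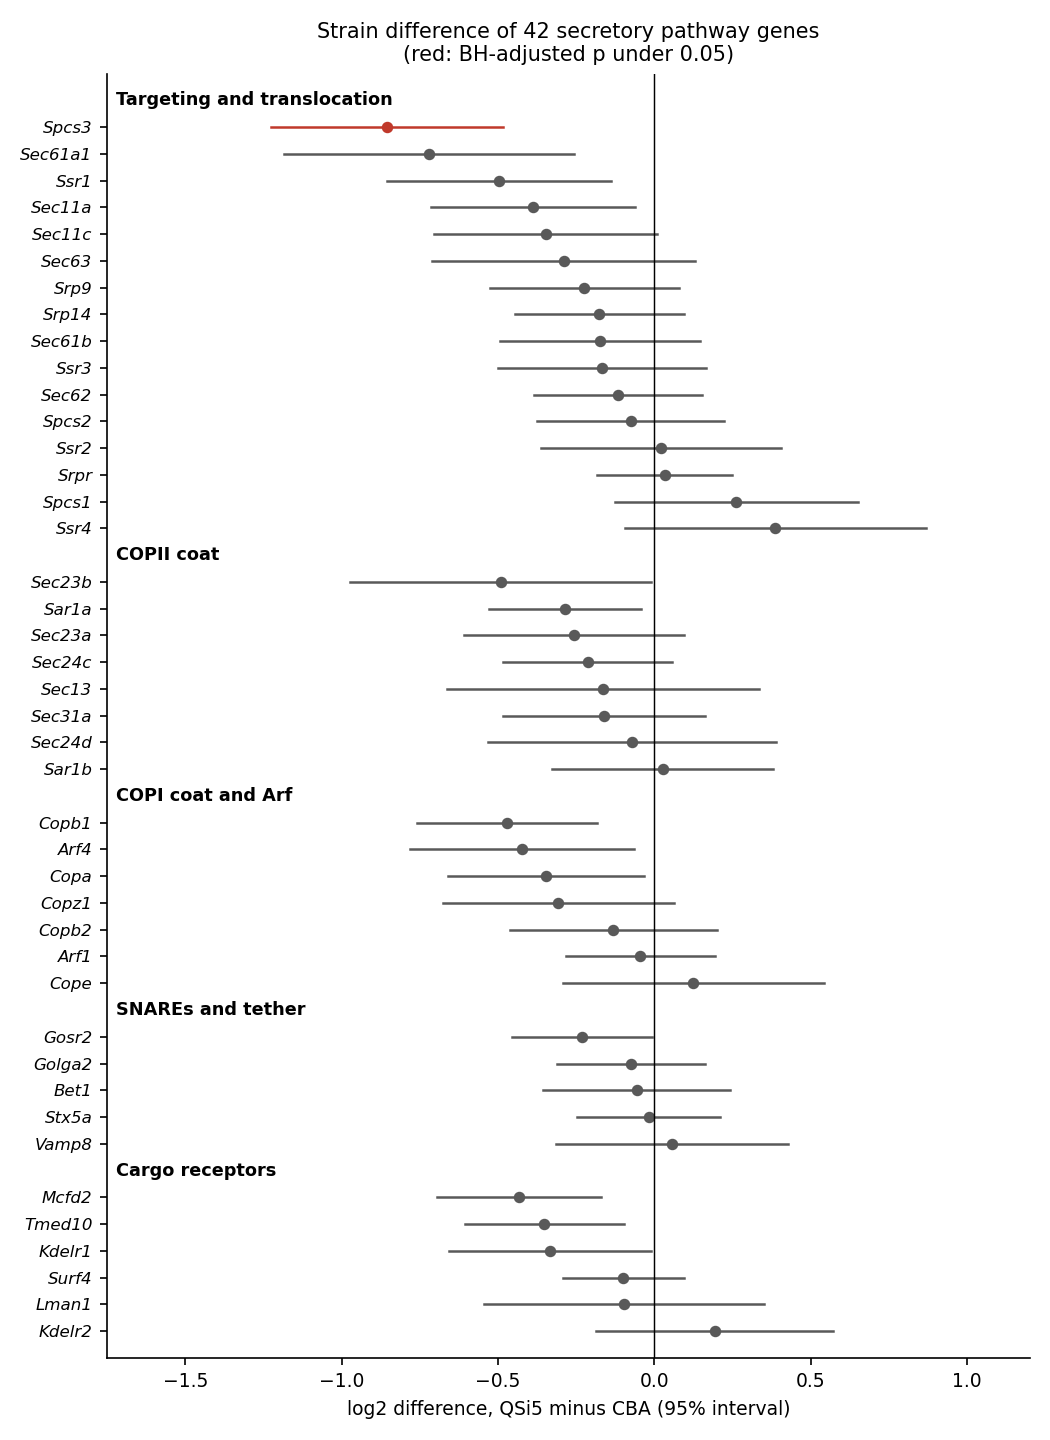
Strain difference of each of the 42 genes on its brightest probe set, grouped by role, on a log2 axis (QSi5 minus CBA), with points for the difference and bars for its 95% interval. Of the points, 34 lie left of 0, and Spcs3 at -0.86 is the gene drawn in red, with a BH-adjusted p under 0.05.

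**Figure D2:**
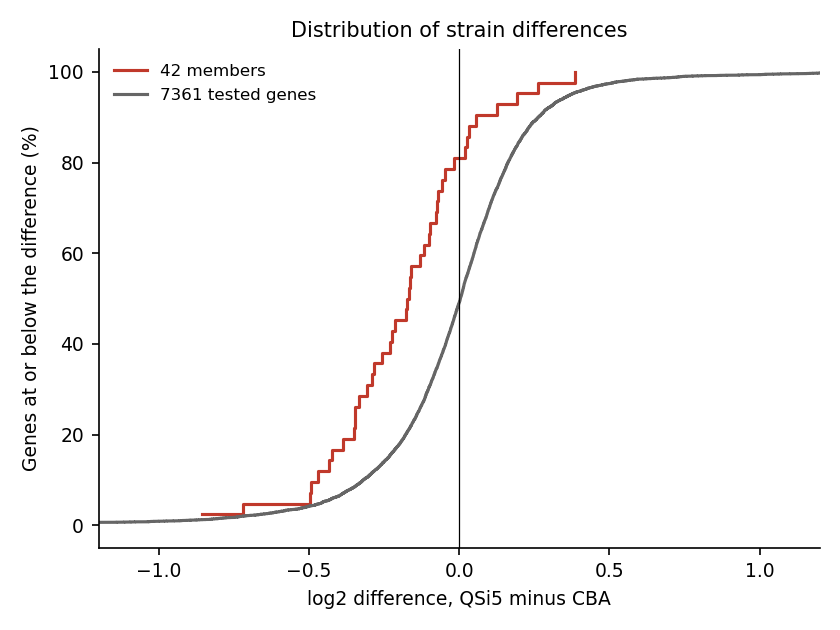
Cumulative share of genes (%) against the log2 difference (QSi5 minus CBA), for the 42 members in red and the 7361 tested genes in grey. The members reach 81.0% at 0, where all genes reach 49.1%.

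Among the 16 targeting and translocation genes, 12 were below 0, the median was -0.17 and 1 was called. Ssr1 encodes the alpha subunit of TRAP, a membrane protein beside the channel. Its probe set 1417764_at read 5.49, 5.13, 5.13, 4.76 and 5.39 in QSi5 mice 1 to 5, against 7.20, 7.65, 7.68, 7.21 and 7.43 in CBA mice 1 to 5 (log2 intensity). Every QSi5 gland lay more than 1 unit below every CBA gland. The difference was -2.26 (SE 0.15, n = 5 mice per strain, limma BH-adjusted p = 3.56e-06), or 4.78-fold higher intensity in CBA, and it was -2.19 on the MOE430 2.0 chips and -2.36 on the MOE430A 2.0 chips. The brighter Ssr1 probe set, 1417763_at, read 8.59, 7.82, 8.39, 7.96 and 8.48 in QSi5 mice 1 to 5, against 8.55, 8.64, 9.09, 8.75 and 8.68 in CBA mice 1 to 5. There the strains overlapped by a single QSi5 mouse that exceeded the lowest CBA mouse, and the difference was -0.50 (SE 0.16, n = 5 mice per strain, limma BH-adjusted p = 0.158). The probe sets of Ssr1 thus differed by 1.76 in their strain difference, the widest gap of any member, and which of them follows the Ssr1 transcript was not tested.

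Spcs3 encodes a non-catalytic subunit of the signal peptidase, which cleaves signal peptides from casein precursors as they enter the ER. Its probe set 1451175_at read 7.14, 6.69, 7.07, 6.63 and 7.40 in QSi5 mice 1 to 5, against 7.76, 7.79, 8.30, 7.61 and 7.74 in CBA mice 1 to 5. The highest QSi5 mouse lay below the lowest CBA mouse, and CBA mouse 3 stood above the other CBA mice. The difference was -0.86 (SE 0.17, n = 5 mice per strain, limma BH-adjusted p = 0.0167), or 1.81-fold higher in CBA. It was -0.67 on the MOE430 2.0 chips and -1.13 on the MOE430A 2.0 chips, and neither chip type passed the threshold alone (adjusted p = 0.207 and 0.203). The other signal peptidase subunits did not pass. Sec11a, a catalytic subunit, read 8.40, 7.97, 8.16, 8.17 and 8.20 in QSi5 mice 1 to 5, against 9.05, 8.45, 8.24, 8.69 and 8.40 in CBA mice 1 to 5, a difference of -0.39 (SE 0.15, n = 5 mice per strain, limma BH-adjusted p = 0.238). Sec11c, the other catalytic subunit, had -0.35 (adjusted p = 0.343), Spcs2 -0.08 and -0.21 on 2 probe sets, and Spcs1 0.26 and -0.02.

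Sec61a1 encodes the pore of the Sec61 channel and had 3 tested probe sets, all below 0. The brightest, 1416189_a_at, read 9.10, 8.64, 8.66, 8.47 and 9.10 in QSi5 mice 1 to 5, against 9.21, 9.67, 10.20, 9.01 and 9.47 in CBA mice 1 to 5. Both strains spread widely and overlapped, and the difference was -0.72 (SE 0.21, n = 5 mice per strain, limma BH-adjusted p = 0.112). Probe set 1448242_at read 8.67, 8.32, 8.81, 8.49 and 8.65 in QSi5 mice 1 to 5, against 9.10, 8.84, 8.92, 9.01 and 8.97 in CBA mice 1 to 5. Here no QSi5 mouse reached the lowest CBA mouse, and the difference was -0.38 (SE 0.11, n = 5 mice per strain, limma BH-adjusted p = 0.1), with an unadjusted p of 0.00451. The third, 1434986_a_at, had -0.31 (adjusted p = 0.365). Sec61b, a small subunit of the same channel, read 10.21, 9.54, 10.09, 10.10 and 10.13 in QSi5 mice 1 to 5, against 10.05, 9.9982, 10.52, 10.25 and 10.13 in CBA mice 1 to 5. Its strains overlapped, with QSi5 mouse 2 apart from the other 9 mice on the low side, and the difference was -0.17 (SE 0.15, n = 5 mice per strain, limma BH-adjusted p = 0.639).

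**Figure D3:**
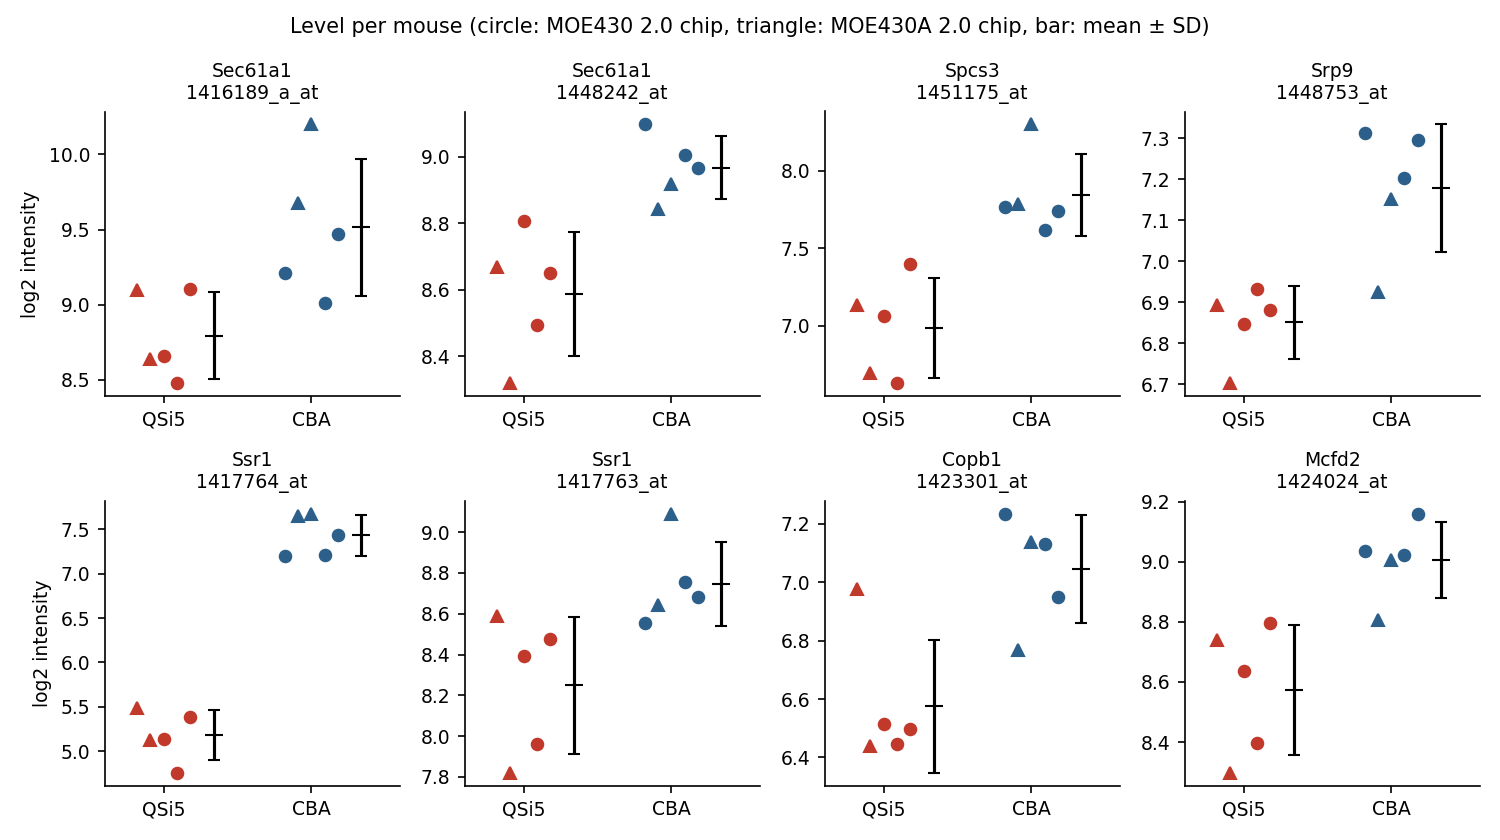
Log2 intensity per mouse of 8 member probe sets, the 7 with an unadjusted p under 0.01 and the brighter Ssr1 probe set, with QSi5 mice in red on the left of each panel and CBA mice in blue on the right, circles for MOE430 2.0 and triangles for MOE430A 2.0 chips, and a bar for the mean ± SD (n = 5 mice per strain). The strains do not overlap for Ssr1 1417764_at, Spcs3, Sec61a1 1448242_at and Mcfd2.

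No SRP gene and no TRAP gene other than Ssr1 was called. Srp9, which with Srp14 forms the part of SRP that slows translation, read 6.89, 6.70, 6.85, 6.93 and 6.88 in QSi5 mice 1 to 5, against 7.31, 6.93, 7.15, 7.20 and 7.29 in CBA mice 1 to 5 on probe set 1448753_at. A single CBA mouse (2) lay as low as the QSi5 mice, and the difference was -0.33 (SE 0.10, n = 5 mice per strain, limma BH-adjusted p = 0.132), while the brighter probe set had -0.22 (adjusted p = 0.503). Srp14 read 9.39, 9.03, 9.43, 9.47 and 9.46 in QSi5 mice 1 to 5, against 9.39, 9.29, 9.73, 9.69 and 9.57 in CBA mice 1 to 5 on its brightest probe set, a difference of -0.18 (SE 0.12, n = 5 mice per strain, limma BH-adjusted p = 0.564), and its other 3 probe sets had -0.32, -0.10 and -0.16. Srpr, the SRP receptor subunit that binds the ribosome-bound particle, read 9.72, 9.85, 9.98, 9.84 and 9.89 in QSi5 mice 1 to 5, against 9.92, 9.59, 9.92, 9.81 and 9.88 in CBA mice 1 to 5. Its difference was 0.03 (SE 0.10, n = 5 mice per strain, limma BH-adjusted p = 0.914), with a 95% interval -0.18 to 0.25. Ssr4, the delta subunit of TRAP, had the opposite sign to Ssr1 on its brightest probe set, 1448524_s_at, which read 12.27, 11.79, 12.25, 12.08 and 12.04 in QSi5 mice 1 to 5, against 11.97, 11.46, 10.90, 12.27 and 11.88 in CBA mice 1 to 5. The strains overlapped and CBA mice 2 and 3 were lowest, and the difference was 0.39 (SE 0.22, n = 5 mice per strain, limma BH-adjusted p = 0.461), with 0.08 on the MOE430 2.0 chips and 0.85 on the MOE430A 2.0 chips. The other 2 Ssr4 probe sets had -0.09 and -0.04. Ssr2 and Ssr3 had 0.02 and -0.17, Sec63, a J-domain protein of the channel, had -0.30 to 0.03 over 4 probe sets, and its partner Sec62 had -0.12 to 0.17 over 3.

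The COPII coat was represented by 8 genes, of which 7 were below 0 (median -0.19) and 0 were called or had an unadjusted p under 0.01. Sec23b, an inner coat subunit, read 8.61, 7.70, 8.07, 7.96 and 8.24 in QSi5 mice 1 to 5, against 8.37, 7.9951, 9.14, 8.61 and 8.93 in CBA mice 1 to 5. The strains overlapped over most of their range, and the difference was -0.49 (SE 0.22, n = 5 mice per strain, limma BH-adjusted p = 0.32). Sar1a, the GTPase that starts coat assembly, had -0.29 on its brightest probe set (SE 0.11, adjusted p = 0.246) and -0.05 on its other (adjusted p = 0.929). Its paralogue Sar1b had 0.03. Sec13, a subunit of the outer cage, had the widest spread within strains of all 42 genes (pooled SD 0.42) and read 7.12, 6.13, 6.96, 6.70 and 7.16 in QSi5 mice 1 to 5, against 6.78, 6.45, 6.94, 7.53 and 7.21 in CBA mice 1 to 5. QSi5 mouse 2 was lowest and CBA mouse 4 highest, with a difference of -0.16 (SE 0.23, n = 5 mice per strain, limma BH-adjusted p = 0.799). Sec24d, a cargo-binding subunit, read 6.79, 5.99, 6.60, 6.04 and 6.77 in QSi5 mice 1 to 5, against 6.79, 6.26, 6.03, 6.92 and 6.55 in CBA mice 1 to 5, a difference of -0.07 (SE 0.21, n = 5 mice per strain, limma BH-adjusted p = 0.913), and its sign changed when QSi5 mouse 2, QSi5 mouse 4 or CBA mouse 4 was left out. Sec23a had -0.26, Sec24c -0.21 and Sec31a -0.16.

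Of the 7 COPI genes, 6 were below 0 (median -0.31). Copb1, the beta subunit of coatomer, read 6.98, 6.44, 6.51, 6.45 and 6.50 in QSi5 mice 1 to 5, against 7.24, 6.77, 7.14, 7.13 and 6.95 in CBA mice 1 to 5. Of the QSi5 mice, 4 lay between 6.44 and 6.51, below every CBA mouse, and QSi5 mouse 1 lay among the CBA values. The difference was -0.47 (SE 0.13, n = 5 mice per strain, limma BH-adjusted p = 0.0923), and without QSi5 mouse 1 it was -0.57 (adjusted p = 0.0233). Arf4, a GTPase of the early Golgi, read 8.36, 7.60, 8.09, 7.63 and 8.33 in QSi5 mice 1 to 5, against 8.42, 8.44, 8.66, 8.33 and 8.27 in CBA mice 1 to 5. QSi5 mice 2 and 4 were well below the rest, and the difference was -0.42 (SE 0.16, n = 5 mice per strain, limma BH-adjusted p = 0.244), with -0.14 and -0.10 on its 2 other probe sets. Arf1, the GTPase that recruits coatomer, was steadier and read 10.32, 9.9988, 10.32, 10.12 and 10.37 in QSi5 mice 1 to 5, against 10.33, 10.08, 10.46, 10.23 and 10.25 in CBA mice 1 to 5, a difference of -0.05 (SE 0.11, n = 5 mice per strain, limma BH-adjusted p = 0.891) with a 95% interval -0.28 to 0.19. Copa had -0.35 (adjusted p = 0.274), Copz1 -0.31, Copb2 -0.13 and Cope 0.12. The other Copb2 and Arf1 probe sets had -0.41 and 0.21.

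The 5 SNARE and tether genes had differences from -0.23 (Gosr2) to 0.06 (Vamp8), with a median of -0.06 and 0 called. Stx5a and Bet1, which act with Gosr2 in fusion of ER-derived vesicles at the Golgi, had -0.02 and -0.06 on their brightest probe sets. The other probe sets of Stx5a, Bet1 and Gosr2 had 0.10, -0.27 and -0.31. Golga2, which encodes the matrix tether GM130, had -0.07. The 95% interval for Stx5a on its brightest probe set was -0.25 to 0.21.

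Of the 6 cargo receptor genes, 5 were below 0 (median -0.22) and 0 were called. Mcfd2, the soluble partner with which Lman1 carries glycoproteins out of the ER, read 8.74, 8.30, 8.64, 8.40 and 8.80 in QSi5 mice 1 to 5, against 9.03, 8.81, 9.01, 9.02 and 9.16 in CBA mice 1 to 5. The strains met without overlapping, at 8.80 in QSi5 mouse 5 and 8.81 in CBA mouse 2, and the difference was -0.43 (SE 0.12, n = 5 mice per strain, limma BH-adjusted p = 0.0888). Lman1 itself, the membrane lectin, read 9.01, 8.34, 8.88, 8.43 and 9.19 in QSi5 mice 1 to 5, against 8.43, 8.73, 9.16, 8.68 and 9.33 in CBA mice 1 to 5. The strains overlapped throughout, with a difference of -0.10 (SE 0.21, n = 5 mice per strain, limma BH-adjusted p = 0.876), and its 3 other probe sets had -0.27, 0.29 and -0.07. Tmed10, a p24 family protein of COPI and COPII vesicles, read 7.05, 6.79, 7.04, 6.72 and 6.81 in QSi5 mice 1 to 5, against 7.21, 7.37, 6.92, 7.36 and 7.29 in CBA mice 1 to 5. CBA mouse 3 lay among the QSi5 mice and the other CBA mice lay above them, and the difference was -0.35 (SE 0.12, n = 5 mice per strain, limma BH-adjusted p = 0.161). Kdelr2, which retrieves ER proteins from the Golgi, gave opposite signs on its 2 probe sets. The brighter read 9.14, 8.63, 9.06, 8.65 and 9.14 in QSi5 mice 1 to 5, against 8.75, 8.41, 8.37, 9.02 and 9.11 in CBA mice 1 to 5 and the other 6.42, 5.85, 6.34, 6.22 and 6.24 in QSi5 mice 1 to 5, against 6.84, 6.51, 6.32, 6.49 and 6.56 in CBA mice 1 to 5, with differences of 0.19 (adjusted p = 0.66) and -0.33 (adjusted p = 0.254). Kdelr1 had -0.33, and Surf4 had -0.10 to -0.53 over 5 probe sets.

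Of the 19 genes with more than 1 tested probe set, 11 had every probe set below 0, 8 had probe sets on both sides of 0, and 0 had every probe set above 0. The gap between the lowest and the highest difference of a gene ran from 0.081 (Gosr2) to 1.76 (Ssr1), with a median of 0.28, and exceeded 0.5 for Ssr1, Lman1 and Kdelr2. For the 8 genes with both signs (Lman1, Kdelr2, Ssr4, Sec63, Sec62, Spcs1, Arf1 and Stx5a) the choice of the brightest probe set decides the side of 0 on which the gene was counted, while Ssr1 was below 0 on either probe set and differed in size.

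**Figure D4:**
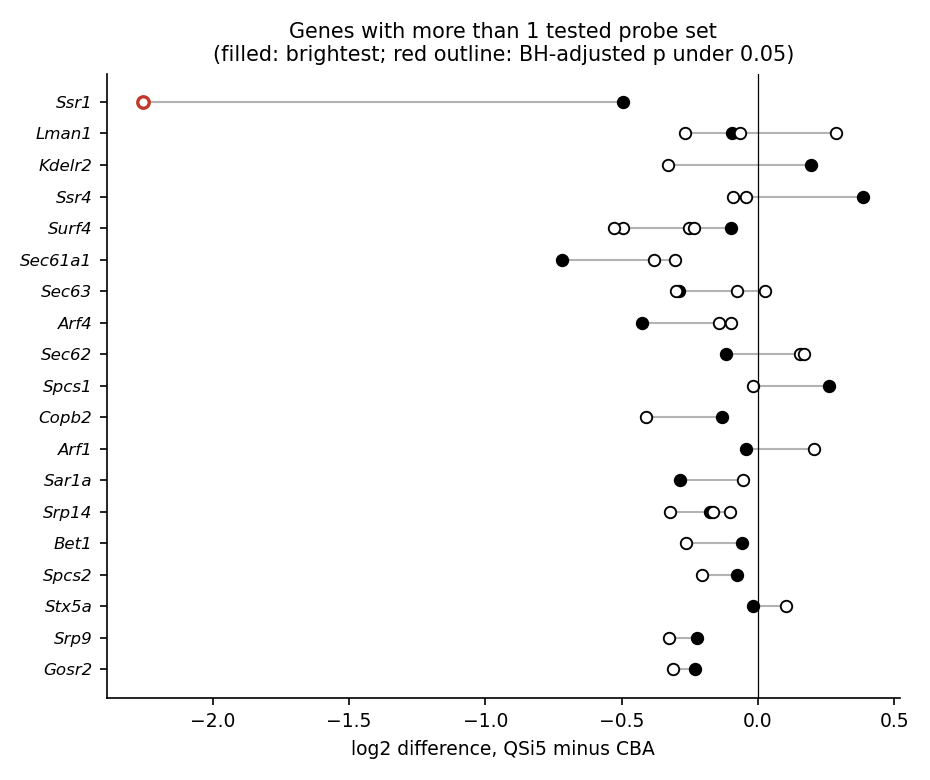
Strain difference (log2, QSi5 minus CBA) of every tested probe set of the 19 genes with more than 1, 1 row per gene, ordered by the gap between probe sets. Filled points are the brightest probe sets and the red outline marks Ssr1 1417764_at at -2.26, far from the other Ssr1 probe set at -0.50.

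The genes moved together from gland to gland. The median deviation of the 42 genes from their means over the 10 arrays was 0.08, -0.36, -0.06, -0.27 and 0.07 in QSi5 mice 1 to 5, against 0.08, -0.07, 0.21, 0.20 and 0.07 in CBA mice 1 to 5. QSi5 mice 2 and 4 were low, and the other 3 QSi5 mice lay within the CBA range. QSi5 mouse 2 was the lowest QSi5 mouse for 25 of the 42 genes (59.5%) and QSi5 mouse 4 for 12 (28.6%), against 30.9% and 22.1% of all tested genes. In CBA, mouse 2 was lowest for 18 genes (42.9%), against 20.1% of all, and mouse 3 was highest for 17 (40.5%), against 27% of all. The same figures by role showed cargo receptor medians of -0.33 to 0.0124 in QSi5 and 0.0217 to 0.26 in CBA glands. These met without overlapping, while the medians of the other 4 roles overlapped. The summed unlogged signal of the same 6 cargo receptor genes did overlap, at 1960.8 to 2598.6 in QSi5 and 2411.1 to 2822.6 in CBA glands. Without QSi5 mouse 2 the median difference of the 42 genes was -0.10, with 28 genes below 0. The spread within strains was, over the 42 genes, a median SD of 0.26 in QSi5 and 0.23 in CBA glands, against 0.19 and 0.22 over all tested genes.

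**Figure D5:**
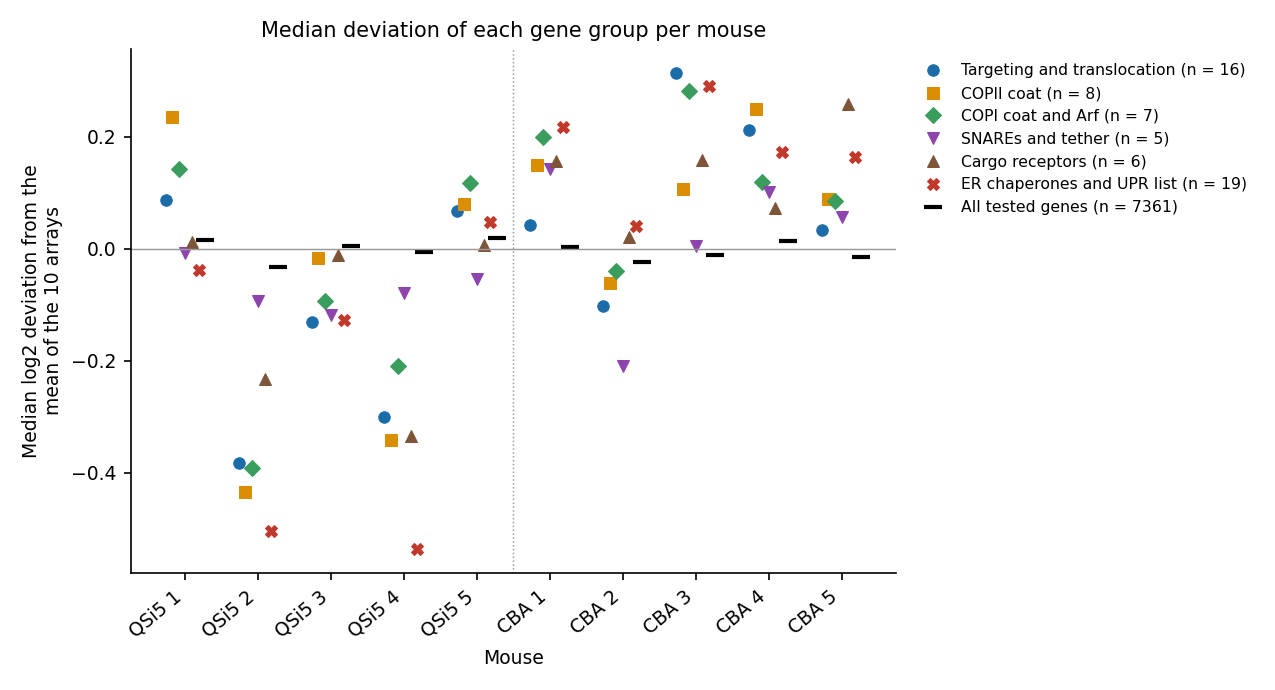
Median log2 deviation of each role's genes from the mean of the 10 arrays, per mouse, with QSi5 mice on the left and CBA mice on the right of the dotted line, beside the ER chaperone and UPR list and all tested genes. QSi5 mice 2 and 4 hold the low values in 4 of the 5 roles, and all tested genes stay between -0.03 and 0.02.

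These mice were also set beside signs of RNA quality and of chip type. The 3′ minus 5′ signal of the actin control, in log2 units, was 1.98 to 2.56 in QSi5 glands (highest in mouse 2) and 1.63 to 3.998 in CBA glands (highest in mouse 3), and that of Gapdh was 1.52 to 1.84 in QSi5 and 1.11 to 3.28 in CBA glands. CBA mice 2, 3 and 5 lay above every QSi5 mouse on both controls, at 3.23, 3.998 and 2.9995 for actin and 2.28, 3.28 and 2.23 for Gapdh. CBA mouse 1 lay within the QSi5 range on both, and CBA mouse 4 lay below it. With QSi5 mouse 2 and CBA mouse 3 both left out, the median difference was -0.08 with 31 of 42 genes below 0, Ssr1 1417764_at stayed called at -2.18 (adjusted p = 8.36e-05), and Spcs3 had -0.67 (adjusted p = 0.0564). CBA mice 2 and 5 stayed in that fit, and the part of RNA quality in the difference was not tested. Chip type was shared evenly, with 2 QSi5 and 2 CBA mice on the MOE430A 2.0 chip and 3 of each on the MOE430 2.0 chip, and the sign of the difference was the same on both chips for 32 of the 42 genes, 28 of them below 0. A chip type difference with strain in the fit was called for 2 of the 74 member probe sets (2.7%), against 0.526% of all tested probe sets. They were Surf4 1455822_x_at and Copb2 1456175_a_at, neither of them the brightest of its gene. No member's strain difference was called as differing between the chip types (limma strain by chip type term, lowest BH-adjusted p = 0.886). With 3 and 2 mice per strain on the chip types, that comparison could miss large gaps. The strain difference of Ssr4 1448524_s_at, for example, was 0.08 on MOE430 2.0 and 0.85 on MOE430A 2.0 chips.

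Markers of the cell types that a gland holds were checked in the same fit. Of 12 tested luminal genes, Krt8 was called at -0.83 (SE 0.16, adjusted p = 0.0161), Krt18 had 0.08 and the milk protein gene Lalba 0.40 (SE 0.11, adjusted p = 0.0845), with 6 of the 12 below 0 (median 0.0015). On their other tested probe sets Krt8 had -0.87 and -0.75, both called (adjusted p = 0.0188 and 0.0431), and Elf5 had -0.06. The other Csn3 probe set had 0.97 (adjusted p = 0.153) and that of Csn2 0.0019. Those of Csn1s2a had 0.94, 0.47 and -0.0018 (adjusted p = 0.15, 0.43 and 0.995). The summed unlogged luminal signal was 116110 to 126910 in QSi5 and 112400 to 122580 in CBA glands, a sum in which the brightest genes weigh most. It holds only the brightest probe set of each gene, so that the other probe sets given above have no part in it. The sum does not measure how many secretory cells a gland held. No gene was called among the tested markers of adipocytes (7 genes), myoepithelium (7), endothelium (4), fibroblasts (7), leukocytes (5), muscle (2) or plasma cells (3). Some of these markers were nevertheless on the same side of 0 as the members. All 4 endothelial markers were below 0 (median -0.17), Cdh5 among them at -0.32 (unadjusted p = 0.00951, adjusted p = 0.15) without overlap between the strains, and so were 5 of 7 adipocyte markers (median -0.11) and 5 of 7 myoepithelial markers (median -0.10), against 1 of 7 fibroblast and 1 of 5 leukocyte markers. The adipocyte differences ran from -0.73 to 0.19, and 1 of the 7 genes was lower in QSi5 at an unadjusted p under 0.01. A further Fabp4 probe set had -0.85 (limma BH-adjusted p = 0.263). Endothelial signal summed to 92.21 to 107.66 in QSi5 and 102.59 to 129.52 in CBA glands, and myoepithelial signal to 1544.4 to 3873.7 in QSi5 and 1972.7 to 4064.2 in CBA glands. Adipocyte signal summed to 863.39 to 1223 in QSi5 and 1019.6 to 2291.9 in CBA glands, and leukocyte signal to 333.17 to 1042.5 in QSi5 and 345.47 to 548.6 in CBA glands. The part of cell composition in the members' differences was not tested.

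The members were last set beside other genes of the same steps, in lists written with earlier results of these data known. Of 16 further targeting and translocation genes 10 were below 0 (median -0.07) and 0 were called, with Srprb, the membrane subunit of the SRP receptor, at 0.37 on its brightest probe set and Srp68 at -0.35. The other Srprb probe sets had -0.54 and 0.56 (adjusted p = 0.132 and 0.248), so that its sign depended on the probe set. Of 11 tested oligosaccharyltransferase genes, which glycosylate the entering chain, 8 were below 0 (median -0.18), and the largest difference, Krtcap2 at -0.46, just missed the threshold (adjusted p = 0.0505) and had -0.28 on its other probe set. Of 17 further COPII and exit site genes 8 were below 0 (median 0.0051), and Sec16b, a scaffold of exit sites, had 0.55 (adjusted p = 0.062). The transcription factors of this list that belong to the CREB3 family, Creb3l1 and Creb3l2, had -0.39 and -0.35 (adjusted p = 0.32 and 0.228), Atf6 had -0.38 (adjusted p = 0.235) and Xbp1 -0.04 (adjusted p = 0.906), with -0.26 on the other Creb3l2 probe set and 0.17, -0.03 and -0.04 on the other Xbp1 probe sets. Outside the list, Creb3 and Creb3l3 of the same family had 0.01 and -0.01 on their brightest probe sets.

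Calls in these lists were few and not of 1 direction, where 2.7% of all 7361 tested genes were called. Of 15 further COPI and Arf genes, Arf5 was called higher, reading 5.46, 5.65, 5.92, 5.91 and 5.78 in QSi5 mice 1 to 5, against 4.98, 5.07, 4.86, 4.83 and 5.37 in CBA mice 1 to 5. Every QSi5 gland was above every CBA gland, with a difference of 0.72 (SE 0.13, n = 5 mice per strain, limma BH-adjusted p = 0.00913), and Arf6 had -0.80 (adjusted p = 0.128) on its brightest probe set and -0.14 and -0.30 on the others. Of 15 further cargo receptor genes, Tmed3, a p24 protein related to Tmed10, was called lower, reading 9.56, 9.19, 9.19, 9.23 and 9.50 in QSi5 mice 1 to 5, against 9.98, 10.52, 10.74, 9.97 and 10.06 in CBA mice 1 to 5. Every QSi5 gland was below every CBA gland, with a difference of -0.92 (SE 0.16, n = 5 mice per strain, limma BH-adjusted p = 0.00877), and Lman2 had -0.65 (adjusted p = 0.0524), with -0.41 on its other probe set. Of 28 further SNARE and tether genes 0 were called (median -0.03). Of 33 post-Golgi exocytosis genes, Vamp3, a vesicle SNARE, was called lower at -1.90 (adjusted p = 2.08e-06) on 1437708_x_at and at -0.55 (adjusted p = 0.0204) on another probe set, while its remaining probe set had -0.32 and was not called (adjusted p = 0.138). The list's median was 0.02.

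The chaperones inside the ER lay further below 0 than any role of the members. Of 19 tested ER chaperone and UPR genes, 17 were below 0 (median -0.38) and 7 had an unadjusted p under 0.01, all lower. Over all 7361 tested genes, 49.1% were below 0, 3.31% were lower at that unadjusted p and 2.7% were called. Hyou1, a large ER chaperone, was the only call in the list, at -0.58 (SE 0.11, n = 5 mice per strain, limma BH-adjusted p = 0.0133). It read 7.28, 7.07, 7.37, 7.0039 and 7.52 in QSi5 mice 1 to 5, against 7.86, 7.82, 7.83, 7.76 and 7.89 in CBA mice 1 to 5, although a second Hyou1 probe set had 0.02. Hspa5, whose promoter element is printed above, read 9.49, 8.30, 8.80, 8.42 and 9.15 in QSi5 mice 1 to 5, against 10.07, 10.15, 10.58, 9.17 and 9.66 in CBA mice 1 to 5. The strains overlapped between QSi5 mouse 1 and CBA mouse 4, with a difference of -1.09 (SE 0.28, n = 5 mice per strain, limma BH-adjusted p = 0.059). The list was low in the same QSi5 mice as the members, with medians of -0.04, -0.50, -0.13, -0.54 and 0.05 in QSi5 mice 1 to 5, against 0.22, 0.04, 0.29, 0.17 and 0.16 in CBA mice 1 to 5. The difference between this list and the members was not tested.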

How the data were processed

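RNA from the glands of 5 QSi5 and 5 CBA dams (day 9 of lactation) was hybridised to 6 MOE430 2.0 and 4 MOE430A 2.0 Affymetrix arrays. These chip types follow the sample records, whereas the methods of the study name only the MOE430A 2.0 chip. The deposited values are log2 intensities that the authors made with RMA (affy package, versions not given in the sources used here) on the 22690 probe sets common to both chips, normalised together. No column of per-sample values was left unmapped, and no further normalisation was applied. After 64 control probe sets were set aside, those with a strain mean above an unlogged 20 in either strain entered the test (11412 probe sets, 7361 genes). The two-sided strain contrast (QSi5 minus CBA) used lmFit and eBayes of limma 3.58.1 under R 4.3.3 and adjusted by Benjamini-Hochberg over all tested probe sets. The fit was tested on simulated data. The 10 arrays correlated at 0.910 to 0.988 and none were identical. The number of arrays limits the precision.

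Symbols came from the platform annotation. The members, the other gene lists, the motifs and the tests were chosen with earlier results of these data known. Values per mouse are given for members with a called probe set or an unadjusted p under 0.01, the 10 largest differences, the 5 brightest, the 5 with the widest spread within strains, and those whose probe sets differ by over 0.5. From other lists, called genes and up to 3 with the largest difference are named. The names Creb3, Creb3l1, Creb3l2, Creb3l3, Atf6, Xbp1, Csn3, Csn2, Csn1s2a, Elf5, Krt18, Fabp4 and Cdh5 were added after their values were seen. Promoter windows were searched in Python 3.11.15 with pandas 2.3.3, and figures were drawn with matplotlib 3.10.9. Alternatives changed 1 choice at a time: the intensity minimum (none, or 50), a second quantile normalisation, median centring, chip type as a block or alone, a replicate block, an intensity trend, array weights, probe set suffixes, an unmoderated fit, and each mouse left out.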

Additional observations from a re-analysis of the deposited data

Results flagged for a closer look

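In 148 sets of 5 mice (74 member probe sets in 2 strains), the mouse at 1 end stood apart from the other 4 by Dixon's test in 7, and chance alone gives about 1 in 20. Of these, 4 were low values of QSi5 mouse 2: Sec61b at 9.5394 (the next mouse at 10.0947), Srp14 1454615_x_at at 9.0311 (next 9.3892), Spcs1 1448258_a_at at 9.0007 (next 9.5331) and Sec31a at 4.749 (next 5.3293), all in log2 units. The other 3 were high values: Ssr4 1435709_at at 6.4532 in QSi5 mouse 4 (next 6.2155), Copb1 at 6.9767 in QSi5 mouse 1 (next 6.513), and Spcs3 at 8.2975 in CBA mouse 3 (next 7.787).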

How the results depend on the processing

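The call of Ssr1 1417764_at held in all 23 alternatives (adjusted p 1.44e-06 to 0.0102), and that of Spcs3 in 19 (0.00611 to 0.207). The count of 2 called member probe sets became 1 on MOE430 2.0 chips alone, on MOE430A 2.0 chips alone, in the unmoderated fit (Spcs3 adjusted p = 0.0743), and with QSi5 mouse 2 and CBA mouse 3 left out together, an alternative chosen after seeing the data. It lay between 2 and 3 with single mice left out, the added call being Copb1 without QSi5 mouse 1 (adjusted p = 0.0233) or Sec61a1 1416189_a_at without CBA mouse 4 (0.0476). The 336 calls among all probe sets became 146 and 65 on the chip types alone and 205 in the unmoderated fit, and 215 to 415 without single mice, the lowest without QSi5 mouse 3 and 221 without QSi5 mouse 5. The 4 calls on brightest probe sets of the other lists became 7 with a minimum of 50, 7 after a second quantile normalisation, 8 with chip type as a block, 2 and 1 on MOE430 2.0 and MOE430A 2.0 chips alone, 7 with array weights, and 2 without _x_at and _s_at probe sets. They were 4 to 6 with single mice left out. The members' median of -0.17 stayed below 0 throughout. It was -0.23 (without CBA mouse 2) to -0.097 (without QSi5 mouse 2) with single mice left out, -0.096 with array weights and -0.078 without both QSi5 mouse 2 and CBA mouse 3, so that these last 3 values were smaller than the reported one by over 1.5 times. Of 504 values of 22 named probe sets, 0 changed sign where called and 17 uncalled ones did, on Sec61b, Srpr, Sec13, Sec24d, Arf1, Kdelr2 and Lman1.

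Mice of the same number were not treated as pairs: their deviations correlated at -0.25, 0.29, -0.37, 0.058 and 0.017 for numbers 1 to 5. The mice shared a chip type for numbers 2, 4 and 5 and not for 1 and 3, so these values cannot settle whether the numbers mark pairs. With the replicate block, 2 member probe sets, 260 probe sets in all and 5 genes of the other lists were called, and the median was -0.17.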
